A study of Danio rerio with 6 samples.

Results

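The 5 genes described here, for calcium, sodium and proton transport, were taken from the deposited gene list of the *crim1*-/- eye RNA-seq experiment at 72 h post fertilization (hpf): *trpv6*, *slc9a2*, *atp1a1a.2*, *atp1a1a.3* and *atp1b1b*. They were found by symbol and are 5 of 223 listed genes. The list holds only genes that the authors kept after comparing *crim1*-/- with control eyes. The paper's methods name limits on adjusted p-value, log2 fold change and mean expression level, and counts are ranked below only within that list. All 5 genes were thus selected on that comparison, and their presence in the list is a description and not a test.

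The study made bulk RNA-seq libraries from dissected whole eyes, 3 labelled *crim1*-/- and 3 labelled wildtype, all at 72 hpf. The series text gives another number of replicates, and the sample labels were followed here. The *crim1*-/- larvae came from in-crosses and have a frameshift deletion in both *crim1* alleles, from a single CRISPR founder, and the line was bred from homozygous fish that looked normal and had no eye defects. The sample titles call this group a knockdown. The control fish came from the EKW strain or from the NBT:DsRed strain, which carries a transgene under a neural beta-tubulin promoter, so genotype and parentage cannot be told apart. The paper calls the eyes pooled, and the sources used here do not say how many went into each library. The value used for each gene is the authors' mean normalized count, the mean over all their libraries of counts divided by DESeq2 size factors. The samples behind this mean are not named, and it was taken here to cover the 6 labelled libraries. It joins both genotypes in 1 number, so it has no replicate error and gives no difference between *crim1*-/- and control eyes. Values of single libraries were not analysed here. For the same reason the level of *crim1* could not be used here to check the genotype labels. The paper itself reports lower *crim1* in *crim1*-/- than in control eyes, in its RNA-seq comparison and by RT-qPCR.

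Ionocytes are mitochondria-rich cells in the skin and gills of fish that take up calcium and sodium from fresh water and secrete acid. Calcium enters through the apical channel Trpv6. Na+/H+ exchangers of the Slc9 family bring sodium in and carry protons out. The sodium pump, the Na+,K+-ATPase, uses ATP to move sodium out of the cell and potassium into it. Its alpha subunit carries out the transport, and its beta subunit is needed for the pump to mature and reach the membrane. The pump is present in nearly all animal cells, including lens epithelium, photoreceptors and neurons, so its presence alone does not mark ionocytes.

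*trpv6* (ENSDARG00000014496), the epithelial calcium channel gene, had an authors' mean of 88.9 normalized counts. *slc9a2* (ENSDARG00000058780), a sodium/proton exchanger gene, had a mean of 33.9 normalized counts, the lowest of the 5. Both were below 111, the median of the mean normalized counts over the 223 listed genes. Of the 222 other listed genes, 97 had fewer counts than *trpv6* and 31 had fewer than *slc9a2*.

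The sodium pump genes had the highest counts of the 5. *atp1b1b* (ENSDARG00000076833), a beta subunit gene, had an authors' mean of 493 normalized counts. The alpha subunit genes *atp1a1a.2* (ENSDARG00000007739) and *atp1a1a.3* (ENSDARG00000039131) had means of 436 and 363 normalized counts. All 3 were above 258, the upper quartile of the listed genes, and they ranked 32, 37 and 41 from the highest. The median of the 5 genes was the 363 counts of *atp1a1a.3*, beside 111 over all listed genes.

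**Figure D1:**
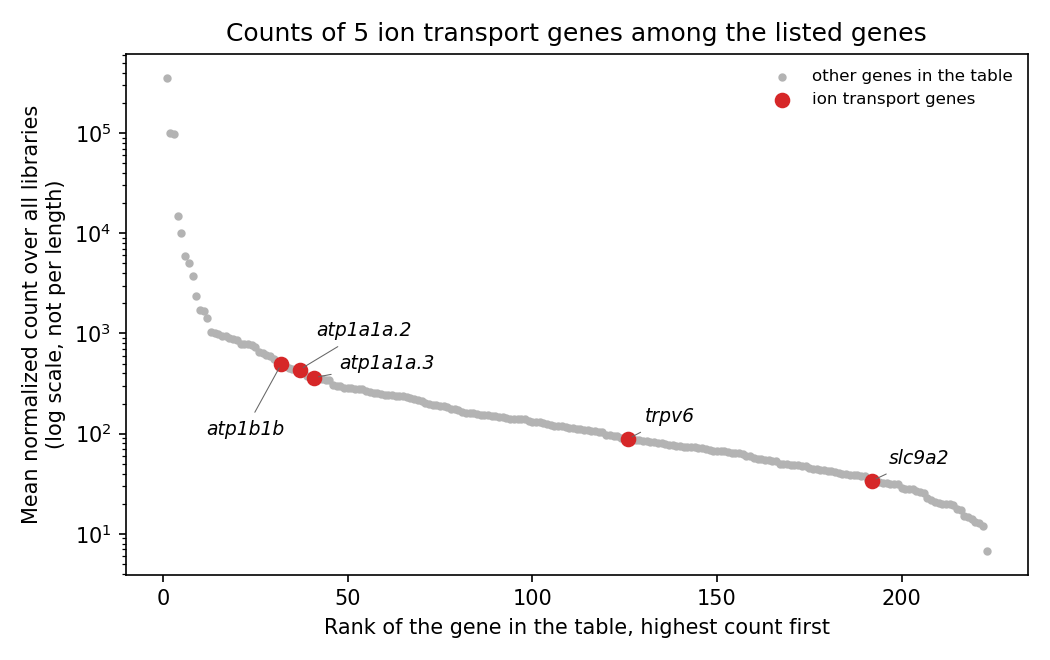
Mean normalized count over all libraries, as the authors deposited it (vertical axis, log scale, not per length), against the rank of each of the 223 listed genes (horizontal axis). Red points are the 5 ion transport genes and grey points the other listed genes; *atp1b1b*, *atp1a1a.2* and *atp1a1a.3* sit between 363 and 493, and *trpv6* and *slc9a2* at 88.9 and 33.9.

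These are normalized read counts and not numbers of transcripts, because they were not divided by gene length and no transcript lengths were used. By the paper's methods, the cDNA was also amplified before the libraries were prepared. The order of the 5 genes therefore shows how many reads stand behind each value, not which transcript was more abundant. The count of *atp1b1b* was 14.5 times that of *slc9a2*, so the value of *slc9a2* rests on the fewest reads. Among the 3 pump genes, the count of *atp1b1b* was 1.13 times that of *atp1a1a.2* and 1.36 times that of *atp1a1a.3*. Whether such ratios exceed the spread between libraries was not tested, since the pooled means carry no error. In whole eyes, the number of cells of a type and the amount of RNA in each cell cannot be told apart either.

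Both alpha subunit genes belong to a cluster of 5 neighbouring *atp1a1a* genes. In the gene order of the RefSeq annotation of assembly GRCz12tu, *atp1a1a.4*, *atp1a1a.1*, *atp1a1a.2*, *atp1a1a.3* and *atp1a1a.5* follow each other with no other protein-coding gene between them. *atp1a1a.2* and *atp1a1a.3* are direct neighbours. They are the only genes of the cluster with a row in the deposited list. Neighbouring copies of a gene can share reads, and the reads were 50 bases long and single-end, so the separate counts of *atp1a1a.2* and *atp1a1a.3* are uncertain. How many reads they share was not analysed here. *atp1b1b* lies on the same chromosome as the cluster but 148 protein-coding genes away from *atp1a1a.2*. None of the 5 genes is on the chromosome of *crim1*. Of the 223 listed genes, 143 could be placed in this order by symbol and 80 could not. Among the placed genes, none lies within 10 protein-coding genes of *trpv6*, *slc9a2* or *atp1b1b*, and *atp1a1a.2* and *atp1a1a.3* had only each other. The positions of the 80 others were not analysed here. The authors aligned to GRCz11, another assembly, so only names and the order of genes were taken from the annotation.

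**Figure D2:**
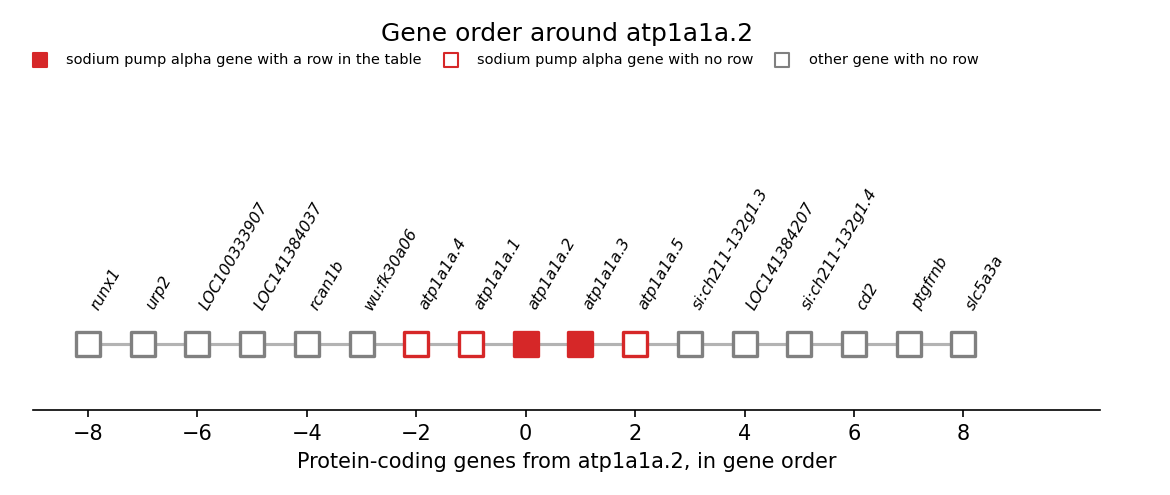
Protein-coding genes around *atp1a1a.2*, drawn in gene order with equal spacing (horizontal axis, number of genes from *atp1a1a.2*, RefSeq GRCz12tu). Red outlines mark the 5 sodium pump alpha subunit genes of the cluster, and filled squares mark *atp1a1a.2* and *atp1a1a.3*, the 2 with a row in the deposited list.

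Other genes of the same functions were looked for in short lists, chosen with earlier results of these data known. None of those other genes has a row in the deposited list. Genes outside the short lists, such as the chloride intracellular channel gene *clic4*, which has a row, were not looked for. Among all 27039 protein-coding symbols of the annotation, 143 match a listed gene, which is 0.529%. This leaves out the 80 listed genes without a matching symbol. The annotation is also of another assembly than the authors used, so this is not the share of the genes they tested. Of 9 annotated alpha subunit genes of the sodium pump, 2 are listed, *atp1a1a.2* and *atp1a1a.3*. Of 7 beta subunit genes, only *atp1b1b* is listed, and its close relative *atp1b1a* is not. None of 4 annotated FXYD genes, which encode small regulators of the pump, is listed. Of 6 sodium/proton exchanger genes of the cell surface, *slc9a2* is listed. The exchanger gene *slc9a3.2*, known for sodium uptake by proton-secreting ionocytes of zebrafish skin, is not. Of 8 genes for the entry, exit and control of calcium in ionocytes, *trpv6* is listed, while the calcium pump gene *atp2b2* and the exchanger gene *slc8a1b*, which serve calcium exit, are not. None of 14 genes for protons, ammonia, bicarbonate and chloride in ionocytes is listed, among them the carbonic anhydrase genes *ca2* and *ca15a*. Across these lists and that of the transcription factors, 5 of 53 annotated genes are listed, and they are the 5 genes described here. The genes were chosen because they are listed, so this count cannot be read against the 0.529%. At so small a share, no row is also the usual outcome for gene lists of these lengths. The missing rows therefore do not set the 5 genes apart from their relatives.

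Of 7 ionocyte markers that were looked for, only *trpv6* is listed. It is among the genes chosen here because they are listed, so its row is no check, and no other marker of the 7 has a row. The pump genes were not among the 7. The ionocyte transcription factor genes *foxi3a*, *foxi3b* and *gcm2* have no row. None of 10 genes of skin and corneal surface epithelium and none of 6 of retina has a row. Other genes of these tissues may have a row and were not looked for. Only 0.529% of all protein-coding symbols of the annotation match a listed gene, so no row is the usual outcome for lists this short. A short list of 5 lens genes has no row either, but it leaves out most crystallins, and 4 other crystallin genes, which encode structural proteins of the lens, are listed. A gene without a row may be unchanged, too low to be kept or past other limits of the authors, and its level in these eyes was not analysed here. The list therefore does not show whether ionocytes or skin were part of the dissected eyes. A link of the 5 genes to ionocytes was not tested here. It would rest on what is already known of these genes and not on a marker check. Whether the pump genes among them mark ionocytes was not tested here.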

How the data were processed

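RNA from whole eyes of *crim1*-/- and wildtype larvae at 72 hpf was sequenced in 6 libraries. By the paper's methods and the submitters' processing notes, the authors checked reads with FastQC, trimmed them with BBDuk, used STAR for alignment to GRCz11, RSEM for gene quantification and DESeq2 for the comparison of the groups, and tool versions are not stated there. The deposited signal used is the authors' mean normalized count over all libraries. The other 4 columns hold the comparison made by the authors (log2 fold change, its standard error, p-value and adjusted p-value) and were not used. Counts of each library were not analysed here, and the count test that had been planned, depth per library and replicate spread are therefore missing. Genes were matched by symbol: 5 of 5 were found in the RefSeq annotation (GRCz12tu) and 5 of 5 IDs in the table of gene names. Ranks, medians and the number of listed genes with fewer counts were calculated, and the ranking was tested on invented numbers with known ranks. The genes and lists were chosen with earlier results of these data known. Named are the 5 genes, and the members of the lists that have a row; list genes without a row were named as examples after the list had been read. Alternatives were the set of listed genes ranked against and a minimum mean of 50 normalized counts. Sequences and transcript lengths were not used here, so planned protein comparisons and per-length values were not made. Python 3.11.15, NumPy 2.4.6, SciPy 1.17.1 and Matplotlib 3.10.9 were used.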

Additional observations from a re-analysis of the deposited data

How the results depend on the processing

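The share of the other listed genes with fewer counts was 43.7% for *trpv6*, 14.0% for *slc9a2*, 83.8% for *atp1a1a.2*, 82.0% for *atp1a1a.3* and 86.0% for *atp1b1b*. Without genes with clone-based names these shares were 31.9%, 9.24%, 77.3%, 74.8% and 80.7% in the same order. Among genes with a mean of at least 50 normalized counts, which leaves out *slc9a2* itself, the share was 24.2% for *trpv6*, 78.2% for *atp1a1a.2*, 75.8% for *atp1a1a.3* and 81.2% for *atp1b1b*. Both settings rank against fewer genes by construction. Without crystallin genes no share moved past its 95% exact binomial interval, which was used here only as a yardstick. That setting leaves out only 4 genes, too few to move a share so far. By the same yardstick, all 5 shares fell below their intervals without genes with clone-based names. With the minimum of 50, the shares of *trpv6*, *atp1a1a.2* and *atp1a1a.3* fell below theirs, and that of *atp1b1b* did not. The minimum removes only genes with fewer counts than the genes it keeps, so these shares could only fall. The order of the 5 genes comes from their own counts, so these settings cannot change it for the genes they keep. No paired analysis was possible because values per library were not used here, and the fits without each replicate, the other count tools, the per-length ranks and the protein comparisons were not run for lack of the values they need. Depth per library is unknown here, so no interval is given for any count.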
